A study of Neurospora crassa with 14 samples.

Results

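Strains of the filamentous fungus Neurospora crassa lacking eaf-3 were compared with wild type by mRNA sequencing. The eaf-3 deletion group (NCU06788 deleted) consisted of strains N5278 and N6169, and the wild type group of strains N3752 and N3753, so that each group held 2 libraries from 2 different strains. Every gene listed by the authors for this comparison was taken, 9477 of the 9552 genes in the whole series, and 9109 of them had an adjusted p-value and are called tested genes here. Both genotypes were grown in 5 ml of Vogels minimal medium with 1.5% sucrose, with shaking, for 16 h at 32 °C. The same medium, time and temperature were used for deletions of sds3 (NCU01599; strains N8193 and N8194), rlp1 (NCU09007; strains N8185 and N8186) and rlp2 (NCU02898; strains N6706 and N6707), which shared the wild type libraries. A further strain, N6279, was his-3, carried selection markers under the promoters of NCU05173 and NCU07152, was given histidine, and received 5 ul or 0 ul of the deacetylase inhibitor Trichostatin A. Mating types and other markers of the deletion strains are not given in the labels. The series asks how mutants of the RPD3L and RPD3S complexes affect transcription across the genome.

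RPD3 is a histone deacetylase that works in a large and a small complex, first described in budding yeast. In yeast, Eaf3 is a chromodomain protein of the small complex, Rpd3S, and binds histone H3 methylated at lysine 36, a mark laid down over transcribed genes. Rpd3S then removes acetyl groups behind the elongating polymerase, and yeast cells without Eaf3 are known for transcripts that start inside genes. Sds3, in contrast, belongs to the large yeast complex, Rpd3L, which acts mainly at promoters.

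Values came from the authors' deposited tables, which hold no value per library. Fold changes below are log2 fold changes of the eaf-3 deletion over wild type from the authors' deposited table, and the value after ± is a standard error worked out from the fold change and its p-value. The words rose, fell and called are used of genes whose DESeq2 adjusted p in the deposited table was under 0.05. Levels are mean normalized counts per group, implied from the deposited average and the 4 deposited fold changes of the deletion set, and are called implied means. An implied mean under about 1 is a fitted value near 0, and a fold change against it is no bound. In these bulk samples, fewer cells of a type and less RNA per cell cannot be told apart. With 1 library from each strain, differences between libraries of a group include differences between strains. For crp-15 the standard error worked out in this way was 0.357 in each of the 4 deletion comparisons. The p-values therefore need not measure the spread within the eaf-3 deletion and wild type groups alone, and how the spread was fitted is not given.

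The targeted gene itself came first. eaf-3 had an implied mean of 0.191 in the deletion strains and 94.6 in wild type, a log2 fold change of -8.95 ± 1.48 in the authors' deposited table (DESeq2 adjusted p = 3.71e-08). Transcripts of the other deleted genes were tested too and did not pass, with log2 fold changes of 0.08 ± 0.19 for sds3, -0.75 ± 0.32 for rlp1 and -0.41 ± 0.29 for rlp2. Of 37 tested genes among the 20 neighbours on each side of eaf-3, 7 rose and 4 fell, which is 29.7% and close to the 31.7% called over all tested genes. NCU06787, which lies next to eaf-3, had an implied mean of 1717 in the eaf-3 deletion and 519 in wild type (1.73 ± 0.20). In the sds3, rlp1 and rlp2 deletions NCU06787 had 436, 619 and 499. NCU06789, next to eaf-3 on the other side, rose in the eaf-3 deletion (1.18 ± 0.48) and also in the sds3 deletion (1.80 ± 0.48). A local effect of the deletion on these adjoining genes was not tested. NCU06809 stood at 142 in the eaf-3 deletion and 459 in wild type (-1.69 ± 0.24). The neighbours NCU11340 and NCU06793 rose with implied means near 0 in wild type, by 10.49 ± 1.54 and 8.60 ± 1.48.

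More genes were higher than lower in the eaf-3 deletion, and the rises were larger than the falls. By the authors' deposited table, 1844 of 9109 tested genes were higher (20.2%) and 1044 were lower (11.5%) in the eaf-3 deletion. The median log2 fold change was 2.20 among the higher genes and -0.82 among the lower genes, against 0.07 over all tested genes. At least a doubling was reached by 1510 of the higher genes, and a fall to 50% or less by 304 of the lower genes. With the authors' own category, which also asks for an absolute log2 fold change over 2, 988 genes were higher (10.8%) and 29 were lower (0.318%). The 988 genes together made up 3.85% of the summed implied means in the eaf-3 deletion, 1.77% in the sds3, 1.43% in the rlp1 and 1.32% in the rlp2 deletion, and 0.408% in wild type. Since these genes were chosen for their rise, the shares describe them and test nothing. The split of higher against lower calls depended on the centring: with fold changes centred on their median, 56.1% of the calls were higher, against 63.9% as deposited.

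**Figure D1:**
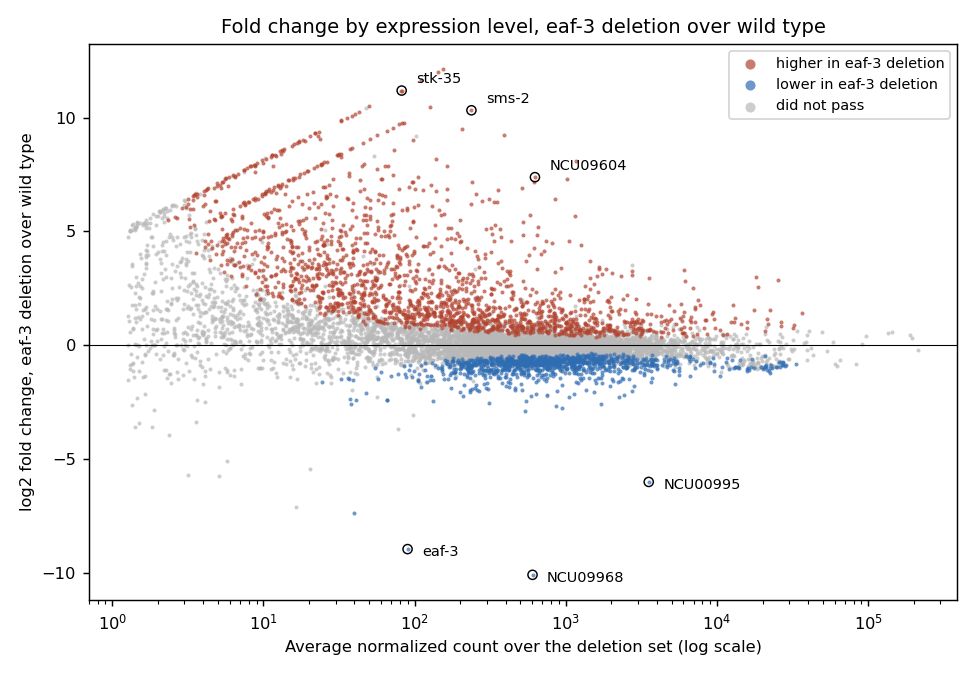
Each point is 1 of the 9109 tested genes, with the average normalized count over the deletion set on a log axis and the log2 fold change of the eaf-3 deletion over wild type on the other axis; red genes were higher and blue genes lower at an adjusted p under 0.05. Rises reach a log2 fold change of 12.12, 4 called genes lie below -5, and eaf-3 itself is at -8.95.

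Among genes with an average of at least 20, the largest rises belonged mostly to genes with almost no reads in wild type. sms-2 (NCU09434), which encodes the Argonaute protein of meiotic silencing, had an implied mean of 1179 in the eaf-3 deletion and 0.923 in wild type (10.32 ± 1.07, DESeq2 adjusted p = 1.11e-19). The protein kinase gene stk-35 (NCU05655) had 402 in the eaf-3 deletion and 0.173 in wild type (11.19 ± 1.57). Genes without a symbol with rises of this size were NCU06917 (11.99 ± 1.49), NCU05678 (11.64 ± 1.50), NCU07091 (11.19 ± 2.22), NCU11340 and NCU05190 (10.45 ± 1.48). NCU05472 had the largest estimate, 12.12, with a standard error of 4.68. In the other deletions NCU05190 was not near 0, with implied means of 172, 82.5 and 132 in the sds3, rlp1 and rlp2 deletions.

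The smallest adjusted p-values in the authors' deposited table belonged to genes that were read in both genotypes. NCU09604 had an implied mean of 3088 in the eaf-3 deletion and 18.5 in wild type (7.38 ± 0.34, DESeq2 adjusted p = 1.06e-98). NCU01038 had 1733 in the eaf-3 deletion and 15.2 in wild type (6.83 ± 0.39, DESeq2 adjusted p = 3.59e-66). NCU11295 had 1271 in the eaf-3 deletion and 46.8 in wild type, and NCU04947 had 1384 in the eaf-3 deletion and 40.0 in wild type.

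Large falls were few. NCU00995 had an implied mean of 96.0 in the eaf-3 deletion and 6153 in wild type (-6.002 ± 0.468, DESeq2 adjusted p = 5.63e-35). NCU09968 had 1.07 in the eaf-3 deletion and 1158 in wild type, with a wide error (-10.08 ± 3.03). A gene close to it, NCU09969, had 0.191 in the eaf-3 deletion and 31.4 in wild type (-7.36 ± 2.83). Both estimates carried wide errors. Next came NCU09648 (-2.87 ± 0.59), tca-11 (-2.77 ± 0.60), tca-13 (-2.65 ± 0.48) and NCU09542 (-2.60 ± 0.82). NCU08560 had the next smallest adjusted p among falls, with 352 in the eaf-3 deletion and 1051 in wild type (-1.58 ± 0.16).

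Many genes of ribosomes, respiration and amino acid synthesis were lower in the eaf-3 deletion. Counts in this and the following lists stand against 20.2% of all tested genes that rose and 11.5% that fell. Of 10 listed cytosolic ribosomal protein genes, 7 fell and 0 rose, and the list median was -1.04, where the median over all tested genes was 0.07. Their summed implied mean was 155488 in the eaf-3 deletion and 308464 in wild type. The fall was -1.14 ± 0.36 for po, -1.11 ± 0.36 for crp-15, -1.08 ± 0.41 for crp-10 and -1.08 ± 0.38 for un-16. Of 39 genes of the respiratory chain and ATP synthase, 21 fell and 0 rose, with a median of -0.54, and every one of the 39 estimates lay below 0. cyc-1, which encodes cytochrome c, had 1506 in the eaf-3 deletion and 5146 in wild type (-1.77 ± 0.60). The complex I subunit genes nuo24, nuo51 and nuo19.3 fell by 1.64 ± 0.37, 1.50 ± 0.40 and 1.43 ± 0.48 on the log2 scale.

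Amino acid synthesis showed the same direction. Of 45 listed genes, 22 fell and 1 rose in the authors' deposited table, the median was -0.73, and 44 estimates lay below 0. arg-12, which encodes ornithine carbamoyltransferase, had 260 in the eaf-3 deletion and 1147 in wild type (-2.14 ± 0.46). ilv-6 of isoleucine and valine synthesis had 681 in the eaf-3 deletion and 2809 in wild type (-2.04 ± 0.33), while ilv-5 rose (0.77 ± 0.28). leu-2 (-1.61 ± 0.37) and arg-2 (-1.57 ± 0.41) fell as well. Gene families grouped by the stem of their symbol, a grouping made after the tables were opened, gave further counts. No gene rose and 8 of 16 fell among tca genes, 7 of 20 among pex (peroxisome) genes, 5 of 11 among tim (mitochondrial inner membrane import) genes and 4 of 6 among ad (purine synthesis) genes. Among 7 tom (outer membrane import) genes, 5 fell and 1, tom5, rose.

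Around the respiratory chain, single genes moved apart from the rest. A list for alternative oxidases and alternative NADH dehydrogenases was picked by the symbol stems aod, nde and ndi. Not every member need encode such an enzyme. Of its 8 genes, 4 fell and 1 rose, with a median of -0.56 in the authors' deposited table. The gene that rose, nde-1, had 2246 in the eaf-3 deletion and 1238 in wild type (0.86 ± 0.29). ndi-1 (-1.39 ± 0.32), nde-2 (-0.83 ± 0.33), aod-5 (-0.74 ± 0.29) and nde-3 (-0.60 ± 0.22) fell. The alternative oxidase gene aod-1 did not pass (0.47 ± 0.34). In acetate use and gluconeogenesis, 2 of 7 genes fell and 1 rose. acu-3, which encodes isocitrate lyase of the glyoxylate cycle, had 334 in the eaf-3 deletion and 1638 in wild type (-2.29 ± 0.32). acu-8 fell (-1.08 ± 0.26), and acu-6, which encodes phosphoenolpyruvate carboxykinase, rose (0.95 ± 0.29).

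**Figure D2:**
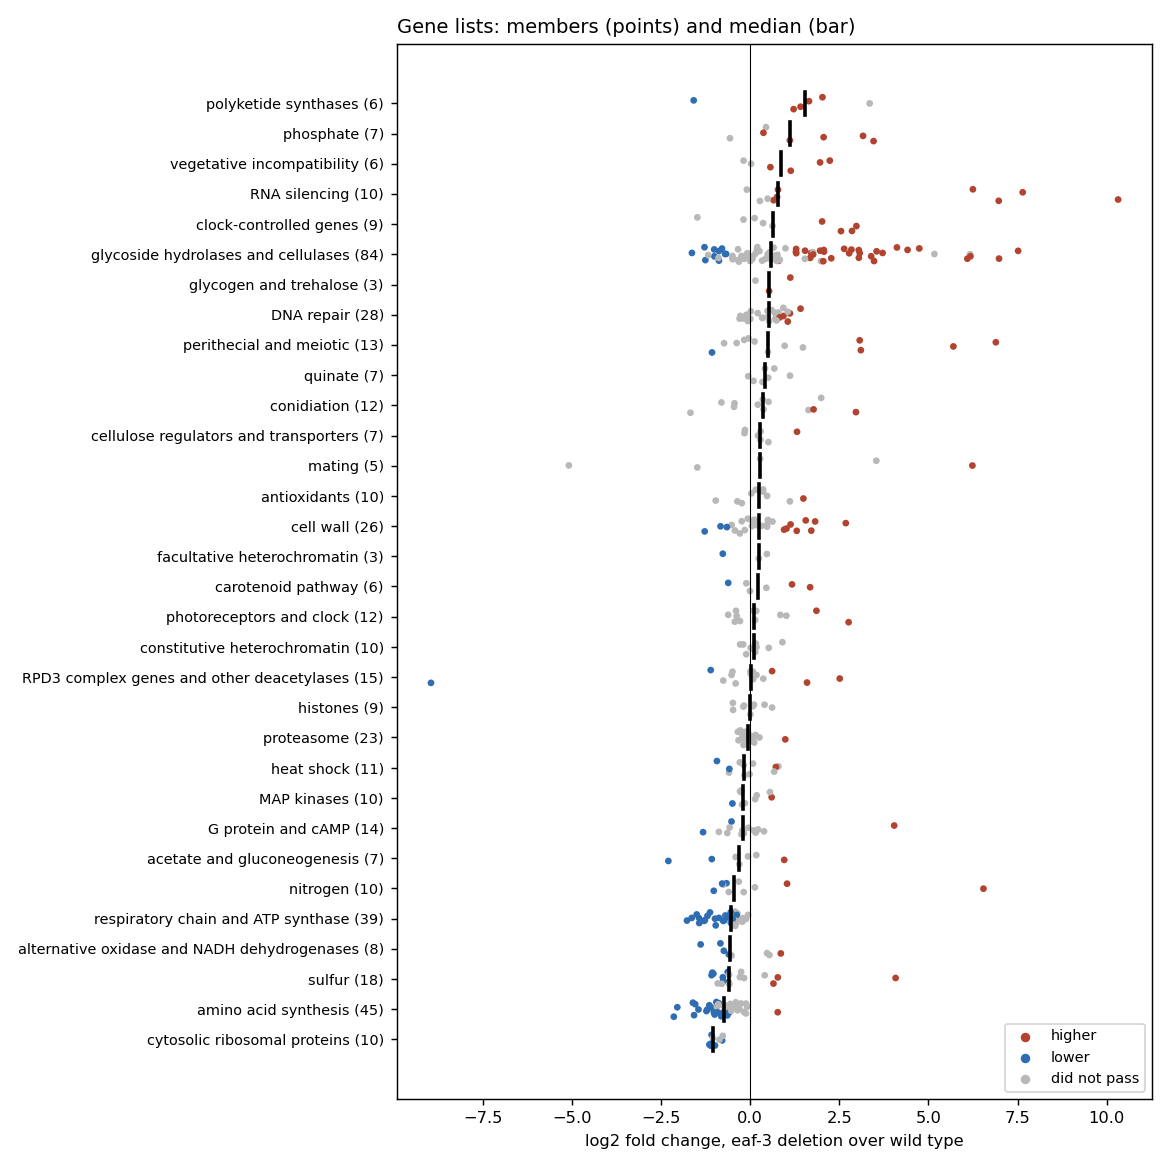
Log2 fold changes of the eaf-3 deletion over wild type for the tested members of each gene list (points; number of tested members in brackets) with the list median (bar); red members were higher, blue lower and grey did not pass at an adjusted p under 0.05. Ribosomal proteins (median -1.04) and amino acid synthesis (-0.73) lie at the bottom, and polyketide synthases (1.53) and phosphate genes (1.11) at the top.

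Genes for taking up and releasing scarce nutrients moved in both directions. In the phosphate list 5 of 7 genes rose and 0 fell, with a median of 1.11. pho-2, which encodes alkaline phosphatase, had 748 in the eaf-3 deletion and 83.4 in wild type (3.17 ± 0.32, DESeq2 adjusted p = 1.02e-20 in the authors' deposited table). The permease genes pho-5 (3.46 ± 0.50) and pho-4 (1.11 ± 0.44), pho-3 for acid phosphatase (2.06 ± 0.45) and the regulator nuc-2 (0.37 ± 0.15) rose. The regulator genes nuc-1 (0.44 ± 0.23) and preg (-0.57 ± 0.31) did not pass. In the sulfur list 3 of 18 genes rose and 7 fell, with a median of -0.60. The arylsulfatase gene ars-1 had 164 in the eaf-3 deletion and 9.71 in wild type (4.08 ± 0.70), and the activator gene cys-3 had 6662 in the eaf-3 deletion and 4235 in wild type (0.65 ± 0.19). scon-3 also rose (0.78 ± 0.17), and the synthesis genes cys-4 (-1.08 ± 0.34), cys-17 (-1.06 ± 0.34) and met-5 (-1.03 ± 0.32) fell most. In the nitrogen list 2 of 10 genes rose and 3 fell. The glutamine synthetase gene gln-2 had 15610 in the eaf-3 deletion and 7620 in wild type (1.03 ± 0.22), and amt had 133 in the eaf-3 deletion and 1.43 in wild type (6.54 ± 1.10). The nitrate transporter gene nit-10 (-1.02 ± 0.39), the nitrate reductase gene nit-3 (-0.79 ± 0.27) and the negative regulator nmr fell, and the activator nit-2 did not pass (0.13 ± 0.17).

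Enzymes that break down polysaccharides moved in both directions. The list of glycoside hydrolases and cellulases had 84 tested genes, of which 30 rose (35.7%, where 20.2% of all tested genes did) and 10 fell (11.9%, where 11.5% did), with a median of 0.59. Several of these genes were close to silent in wild type. gh18-8 (NCU07484), of the chitinase family 18, had 496 in the eaf-3 deletion and 6.85 in wild type (6.18 ± 0.55, DESeq2 adjusted p = 1.16e-26 in the authors' deposited table). gh18-1 (7.52 ± 2.06), gh10-1 (6.98 ± 2.07) and gh76-1 (6.09 ± 2.41) had implied means of 31.1, 21.4 and 11.4 in the eaf-3 deletion and under 1 in wild type. gh28-1 had 5708 in the eaf-3 deletion and 268 in wild type (4.42 ± 0.82). Regulators and transporters of the cellulose response were mostly not called, with 6 of the 7 listed genes not passing. Cellulase genes were not counted apart from the other hydrolases. cbh-1, a major cellulase gene, did not pass (-0.31 ± 0.36), nor did the activator gene clr-2 (0.22 ± 0.64), and of 7 cellulose regulators and transporters 1 rose, the transporter gene cdt-1 (1.31 ± 0.30). Quinate genes had 0 DESeq2 calls in 7, with 1 at an unadjusted p under 0.05 and a median of 0.41. In the cell wall list 8 of 26 rose and 3 fell, with the chitin synthase gene chs-6 at 194 in the eaf-3 deletion and 59.1 in wild type (1.71 ± 0.37). ncw-5 (2.68 ± 0.81), ncw-3 (1.82 ± 0.40) and acw-8 (1.56 ± 0.31) rose, and acw-10 fell (-1.28 ± 0.24).

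Several genes of RNA silencing had large rises. Meiotic silencing is an RNA interference process known to act on unpaired DNA in meiosis. Quelling is its counterpart in vegetative cells and acts on repeated sequences. Of 10 RNA silencing genes, 7 rose (70.0%, where 20.2% of all tested genes did) and 0 fell, with a median of 0.77. The 4 listed genes with the symbol stems sms and sad, sms-2 and the 3 sad genes, all rose, and each had an implied mean under 3 in wild type. This grouping is by symbol and need not hold every listed gene with a part in meiotic silencing. sad-1, for its RNA-dependent RNA polymerase, had 186 in the eaf-3 deletion and 2.45 in wild type (6.25 ± 0.88). sad-3, for a helicase, had 117 in the eaf-3 deletion and 0.930 in wild type (6.97 ± 1.20), and sad-2 had 93.8 in the eaf-3 deletion and 0.469 in wild type (7.64 ± 1.58). The quelling Argonaute gene qde-2 was expressed in both and had 4640 in the eaf-3 deletion and 2751 in wild type (0.75 ± 0.21). dcl-2, a Dicer gene, and qip rose by 0.78 ± 0.25 and 0.66 ± 0.21, while dcl-1 (0.49 ± 0.26), qde-1 (0.27 ± 0.27) and qde-3 (-0.09 ± 0.35) did not pass.

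In the perithecial and meiotic list 4 of 13 genes rose (30.8%, where 20.2% of all tested genes did), 1 fell and 8 did not pass, with a median of 0.50. poi-2, a gene of sexual development, had 649 in the eaf-3 deletion and 12.5 in wild type (5.70 ± 0.42, DESeq2 adjusted p = 6.74e-40 in the authors' deposited table). asd-1, needed for ascus development, had 10245 in the eaf-3 deletion and 1192 in wild type (3.10 ± 0.50). asd-3 (3.07 ± 0.54) and per-1 (6.89 ± 0.80) rose, and pp-2 fell (-1.07 ± 0.23). Among mating genes 1 of 5 tested rose, near the 20.2% of all tested genes: pre-2, for a pheromone receptor, had 273 in the eaf-3 deletion and 3.63 in wild type (6.23 ± 0.80). The pheromone gene mfa-1 (3.54 ± 1.53) and the mating type gene matA-1 (-5.09 ± 4.80) did not pass and had wide errors. matA-1, which is carried by strains of mating type A, had implied means of 0.189 in the eaf-3, 12.4 in the sds3, 0.177 in the rlp1 and 9.50 in the rlp2 deletion, and 6.41 in wild type. Of the 4 markers of perithecia, poi-2 and per-1 rose, while app (-0.38 ± 0.47) and fmf-1 (-0.73 ± 0.61) did not pass. The summed implied mean of these 4 markers was 999 in the eaf-3 deletion and 196 in wild type. In the sds3, rlp1 and rlp2 deletions it was 282, 3001 and 1531, so a higher sum was not particular to eaf-3. The part of perithecial cells in the rises of poi-2 and per-1 was not tested. The meiotic recombination gene msh4 had 653 in the eaf-3 deletion and 97.1 in wild type (2.75 ± 0.32), and spo11, which makes meiotic DNA breaks, did not pass (1.479 ± 1.296).

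Genes of light response and conidiation rose about as often as all tested genes: 16.7% of the photoreceptor and clock list and 16.7% of the conidiation list, against 20.2%. Carotenoids and conidia are made in Neurospora on exposure to light and air. The carotenoid genes al-1 (-0.01 ± 0.42), al-2 (0.45 ± 0.40) and al-3 (-0.11 ± 0.25) did not pass. In the carotenoid list, which was picked by symbol, cao-1 (1.68 ± 0.35) and cao-2 (1.17 ± 0.19) rose and ylo-1 (-0.61 ± 0.23) fell. Of 12 photoreceptor and clock genes, 2 rose and 0 fell, the phytochrome gene phy-2 (2.76 ± 0.60) and the opsin gene nop-1 (1.86 ± 0.74). The photoreceptor genes wc-1 (-0.38 ± 0.18) and vvd (0.85 ± 0.40) and the clock gene frq (-0.29 ± 0.42) did not pass. Of 9 clock-controlled genes 4 rose and 0 fell, and ccg-1 had 55370 in the eaf-3 deletion and 7647 in wild type (2.86 ± 0.58). ccg-13 (2.98 ± 0.64), ccg-14 (2.55 ± 0.52) and ccg-9 (2.02 ± 0.42) were the others. Of 12 conidiation genes, con-8 (2.97 ± 0.56) and con-6 (1.78 ± 0.65) rose, and con-10 (1.99 ± 0.96) and the hydrophobin gene eas (-0.81 ± 0.91) did not pass. The 5 conidial markers summed to 15119 in the eaf-3 deletion and 20914 in wild type, mostly through eas, and the part of conidia in these values was not tested.

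Chromatin genes were called about as often as others in the deacetylase list, and not in the lists of histones and constitutive heterochromatin. Of 10 constitutive heterochromatin genes 0 were called by DESeq2 and 2 had an unadjusted p under 0.05, with a median of 0.10. Of 9 histone genes 0 were called and 3 had an unadjusted p under 0.05, with a median of 0.00. Of 3 facultative heterochromatin genes, set-7, for the histone H3 lysine 27 methyltransferase, did not pass (0.47 ± 0.21), and set-2, for the histone H3 lysine 36 methyltransferase, fell to 211 in the eaf-3 deletion, against 359 in wild type (-0.77 ± 0.23). Among 15 RPD3 complex and other deacetylase genes 3 rose, a share near the 20.2% of all tested genes. Falls numbered 2 (13.3%, where 11.5% of all tested genes fell), and 1 of them was that of eaf-3, which was deleted by design. The sirtuin genes nst-7 (2.51 ± 0.41) and nst-6 (1.60 ± 0.39) and the deacetylase gene hda-4 (0.62 ± 0.22) rose. Besides the deleted eaf-3, the sirtuin gene nst-4 fell (-1.11 ± 0.22). NCU05173 and NCU07152, whose promoters drive markers in the strain used for Trichostatin A, rose in the eaf-3 deletion, with 130 and 15.9 there against 1.86 and 0.472 in wild type (6.12 ± 0.87 and 5.07 ± 1.72). In the sds3, rlp1 and rlp2 deletions NCU05173 had implied means of 115, 137 and 268, so its rise was not particular to eaf-3. NCU07152 had 0.580, 3.33 and 12.1 in the same order.

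Defence and signalling genes gave smaller groups. Of 6 vegetative incompatibility genes, 4 rose and 0 fell: pin-c (2.23 ± 0.35), het-6 (1.96 ± 0.33), un-24 (1.14 ± 0.30) and vib-1 (0.57 ± 0.18). This is 66.7%, where 20.2% of all tested genes rose. The alleles of the strains at incompatibility loci are not given in the labels, and their part in these values was not tested. Of 6 polyketide synthase genes 4 rose, among them pks-6 (2.03 ± 0.71), pks-1 (1.65 ± 0.29) and pks-2 (1.41 ± 0.27), and pks-3 fell (-1.58 ± 0.28). Of 53 protein kinase genes with the stem stk, 10 rose and 6 fell, shares close to the 20.2% and 11.5% of all tested genes, and the median was 0.01. Single members had large changes. stk-36 had 1273 in the eaf-3 deletion and 15.5 in wild type (6.36 ± 0.45), stk-44 had 692 in the eaf-3 deletion and 26.9 in wild type (4.68 ± 0.38), and stk-53 had 669 in the eaf-3 deletion and 10.8 in wild type (5.95 ± 0.46). The falls among stk genes were at most 1.04 on the log2 scale. DNA repair genes rose in 6 of 28 cases (21.4%, near the 20.2% of all tested genes) and fell in 0, with a median of 0.52. The largest rises there were those of mus-11 (1.41 ± 0.47) and rad16 (1.12 ± 0.34). Antioxidant genes gave 1 rise in 10, the catalase-peroxidase gene cat-2 (1.49 ± 0.31). Heat shock genes gave hsp78 as the 1 rise (0.72 ± 0.23) and hsp70-2 (-0.93 ± 0.37) and hsp88 (-0.58 ± 0.22) as the 2 falls in 11. Proteasome genes gave 1 rise in 23, rpn-4 (0.99 ± 0.25). G protein and cAMP genes gave 1 rise and 2 falls in 14, with gpr-1, for a receptor, at 47.3 in the eaf-3 deletion and 2.87 in wild type (4.04 ± 0.95). The falls were gpr-6 (-1.32 ± 0.46) and pkac-1 (-0.52 ± 0.22). MAP kinase genes gave mek-1 as the 1 rise (0.60 ± 0.22) and mik-1 as the 1 fall (-0.50 ± 0.17) in 10. Both gnn, for glycogenin (1.13 ± 0.26), and tre-2, for trehalase (0.53 ± 0.19), rose in a list of 3 genes for glycogen and trehalose.

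Genes without a symbol made up most of the table, and their shares were close to the background. Of 7990 tested, 1676 rose (21.0%) and 851 fell (10.7%).

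Shares of genes that rose differed with expression level. To avoid sorting genes by the libraries compared, levels were taken from the implied means of the rlp2 deletion. Shares are given over all genes of a class, tested or not, because a gene without reads here could be tested only through reads in another group. Of 754 genes with an implied mean of at most 1, 416 were tested, and 26.1% of the 754 rose and 0 fell. From 1 to 10, 808 of 838 genes were tested, and 40.1% of the 838 rose and 0 fell. From 10 upward every gene was tested. From 10 to 100 the share that rose was 38.2%, and 2.03% fell. From 100 to 1000, the class with the most genes, 13.3% rose and 14.8% fell. From 1000 to 10000, 10.5% rose and 16.4% fell, and above 10000, 10.5% rose and 19.7% fell. The error falls with level too: the median standard error was 1.76 for genes with an average up to 10 and 0.27 between 100 and 1000, so that small falls of weak genes were not detectable. Of the 1844 genes that rose, 255 had an implied mean under 1 in wild type.

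**Figure D3:**
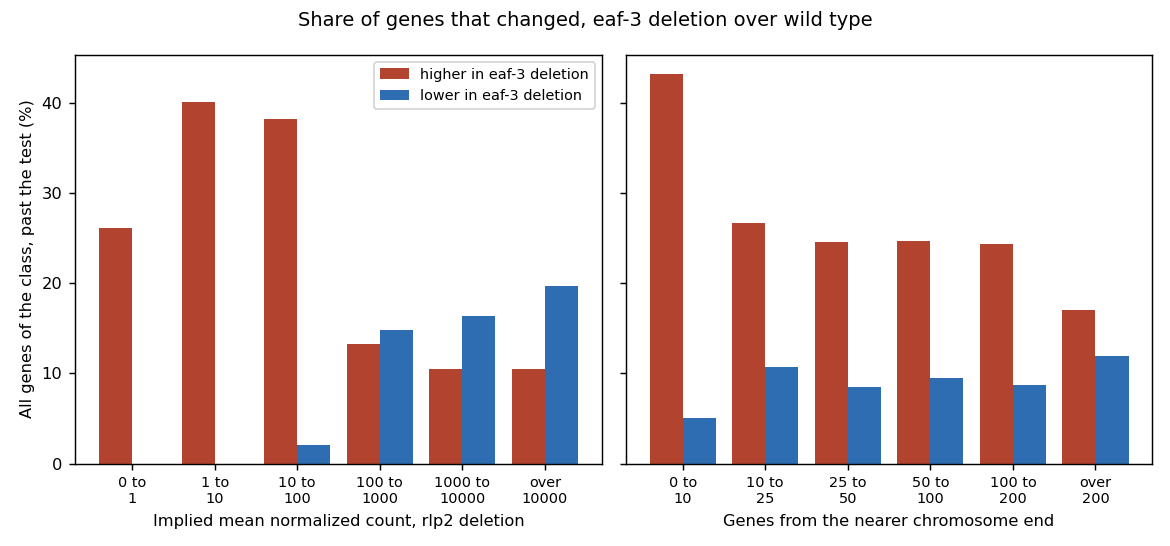
Percent of all genes in a class, tested or not, that were higher (red) or lower (blue) in the eaf-3 deletion, by implied mean normalized count in the rlp2 deletion (left) and by number of genes to the nearer chromosome end (right). The share higher is 26.1% at the lowest level, 40.1% and 38.2% in the next classes and 10.5% at the highest, and it is 43.2% within 10 genes of an end against 17.0% beyond 200 genes.

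Over all genes, shorter ones rose more often: 22.3% of the 2123 genes in the shortest class of length rose, and 15.4% of the 1823 in the longest. Within classes of level the order differed. From 1 to 10, 65.9% of 126 genes longer than the median of 2229 bases rose, and 35.5% of 712 shorter ones. From 10 to 100 these shares were 47.5% for longer and 33.8% for shorter genes. From 100 to 1000, 312 of 2402 longer genes and 234 of 1718 shorter genes rose, with nearly the same share. Above 1000, 156 of 1555 longer genes and 100 of 876 shorter genes rose. At or under 1 the shares were 59.3% of 59 longer and 23.3% of 695 shorter genes, where 45 and 371 had been tested. The levels that define these classes are counts and were not divided by gene length. Lengths are those of the gene models in a RefSeq table of assembly NC12.

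Genes that rose were unevenly spread along the chromosomes. Of 652 tested genes among the 50 outermost at each end of the 7 linkage groups, 199 rose (30.5%) and 58 fell (8.9%), with a median of 0.46. Among the 10 outermost genes at each end, 44.4% of 135 tested genes rose. Beyond 200 genes from an end, 17.5% of 6605 rose. Within the level class of 100 to 1000, 25.1% of the outermost genes and 12.4% of the others rose. Among all genes of the class up to 10, tested or not, 33.3% of 141 outermost genes and 33.5% of 1451 others rose. Linkage groups VI (25.2%) and VII (24.9%) had the most rises and linkage group I (17.5%) the fewest.

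Genes that rose also lay next to each other more often than over the table as a whole. For 1838 genes that rose and had a tested gene after them on the chromosome, the next one had also risen in 694 cases, 37.8%, where 20.2% of all tested genes had risen. For genes that fell the share was 20.5%, where 11.5% of all had fallen. Passing over genes without an adjusted p, runs of 5 or more adjacent genes numbered 38 among rises and 4 among falls. The longest run held 17 genes on linkage group VI, NCU17062 to NCU04697, with a median of 4.05 and a range of 0.77 to 6.55. Its last gene, NCU04697, had an implied mean of 5542 in the eaf-3 deletion and 109 in wild type (5.66). NCU04698, the gene after it, did not pass (-0.27). NCU09968 and NCU09969, the genes with large falls described above, lay a few genes before its start. The second longest run held 10 genes, NCU05044 to NCU05035, also on linkage group VI (median 2.40). The third held 9 genes on linkage group IV, NCU07029 to NCU07038 (median 4.13). Neighbouring genes can overlap, and the strand setting of the counting is not given in the sources used here, so part of the reads of adjacent genes may be shared.

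**Figure D4:**
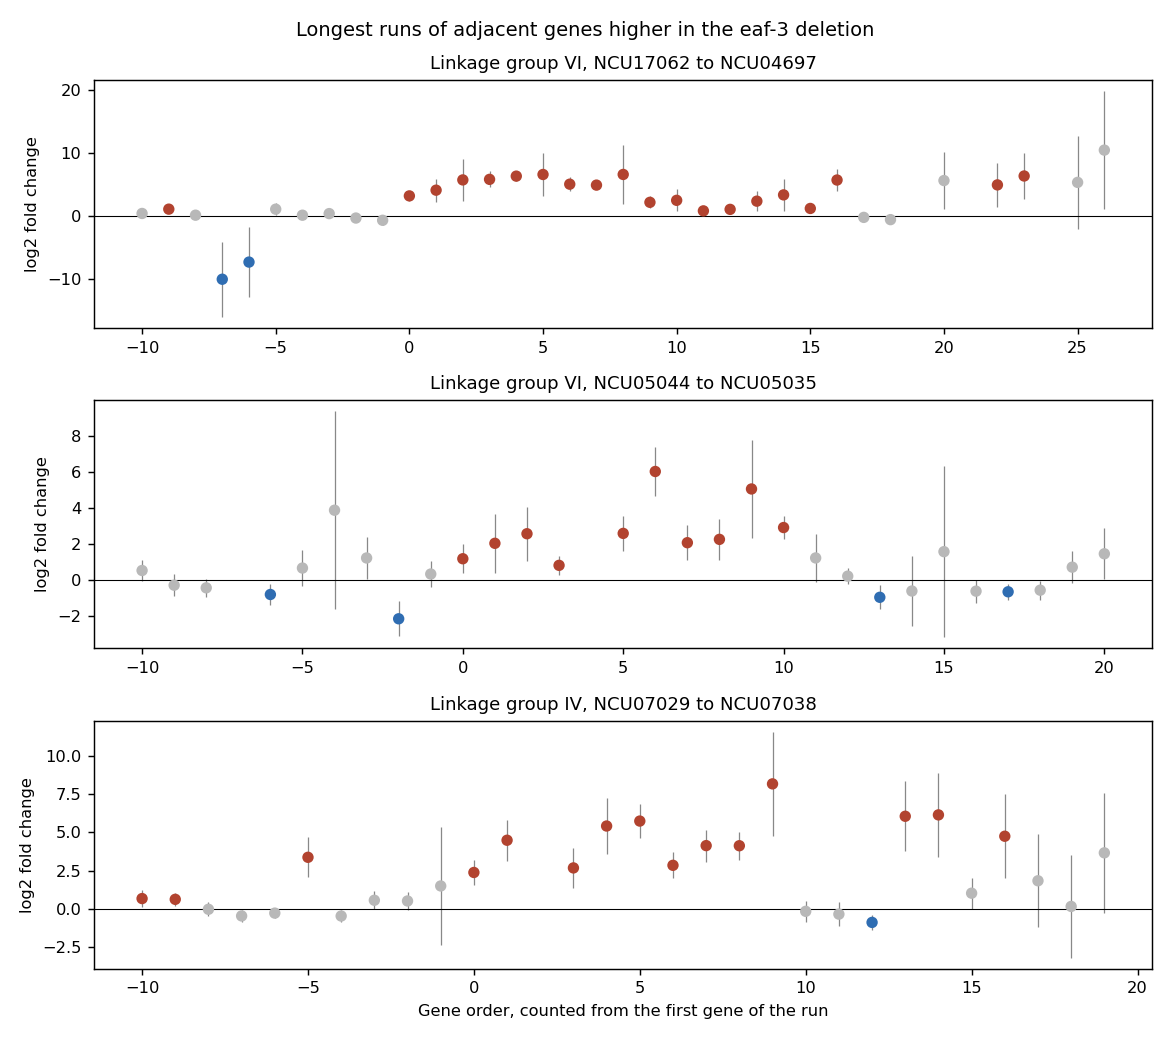
Log2 fold changes of the eaf-3 deletion over wild type (points, with 95% normal intervals from the implied standard errors) for tested genes in order along the chromosome, for the 3 longest runs of adjacent genes that rose and their surroundings; red genes were higher, blue lower and grey did not pass. Inside the runs of 17, 10 and 9 genes every tested gene is red, while the genes on either side are mixed.

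The change in the eaf-3 deletion differed from that in the other deletions for many genes. For each gene a normal test compared the fold change in eaf-3 with that in another deletion, taking both errors as independent. Because the deletions share the wild type libraries, this error is too large rather than too small. The fold change was higher in eaf-3 than in sds3 for 1073 of 9034 genes (11.9%) and lower for 817 (9.04%). It was higher than in rlp1 for 654 of 8877 (7.37%) and lower for 561 (6.32%). It was higher than in rlp2 for 618 of 8349 (7.4%) and lower for 263 (3.15%). In all, 387 genes rose in the eaf-3 deletion and also had a higher fold change there than in each of the other 3 deletions, which is 4.64% of the 8338 genes tested in all comparisons and 23.3% of those that rose. Falls of this kind numbered 59, the deleted eaf-3 itself among them, or 0.708% of the genes tested and 5.65% of those that fell. A gene at 0 in wild type and in another deletion had no standard error there and could not be compared with it. Such genes numbered 58 among the rises. NCU05678 was 1 of them, with 552 in the eaf-3 deletion and under 1 in every other group. Its fold change was above that in sds3 by 9.87 and in rlp1 by 10.15.

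Of these 387 genes, sms-2 was farthest from the other deletions. The implied mean of sms-2 was 1179 in the eaf-3 deletion, 2.32 in the sds3, 2.43 in the rlp1 and 2.17 in the rlp2 deletion, and 0.923 in wild type. Its smallest difference was 8.92 ± 1.65 on the log2 scale, to rlp1 (adjusted p of the normal test 3.16e-06). NCU09604 had 3088 in the eaf-3 deletion, 5.22 in the sds3, 2.91 in the rlp1 and 8.26 in the rlp2 deletion, and 18.5 in wild type, so that only the eaf-3 deletion was above wild type, and its smallest difference was 8.55 ± 0.59. NCU04948 had 803 in the eaf-3 deletion, 2.95, 0.972 and 2.61 in the sds3, rlp1 and rlp2 deletions, and 6.90 in wild type. The others of the first 10 were NCU06475, NCU00806, NCU09605, NCU01592, NCU04960, NCU06160 and NCU08837. Of the 387 genes, 31 have a symbol, and several are members of groups already described: sad-1, sad-3, poi-2, asd-1, asd-3, pre-2, msh4, pho-2, ars-1, cys-3, het-6, pin-c, chs-6, gh18-8, gh18-9, gh28-1, and 6 stk genes. The kinase gene rsk (3.41 ± 0.47), neg-1 (3.32 ± 0.39), ecd-2 (2.36 ± 0.45), the NADPH oxidase gene nox-2 (0.76 ± 0.21) and the methyltransferase gene set-3 (0.52 ± 0.21) belonged to them too.

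**Figure D5:**
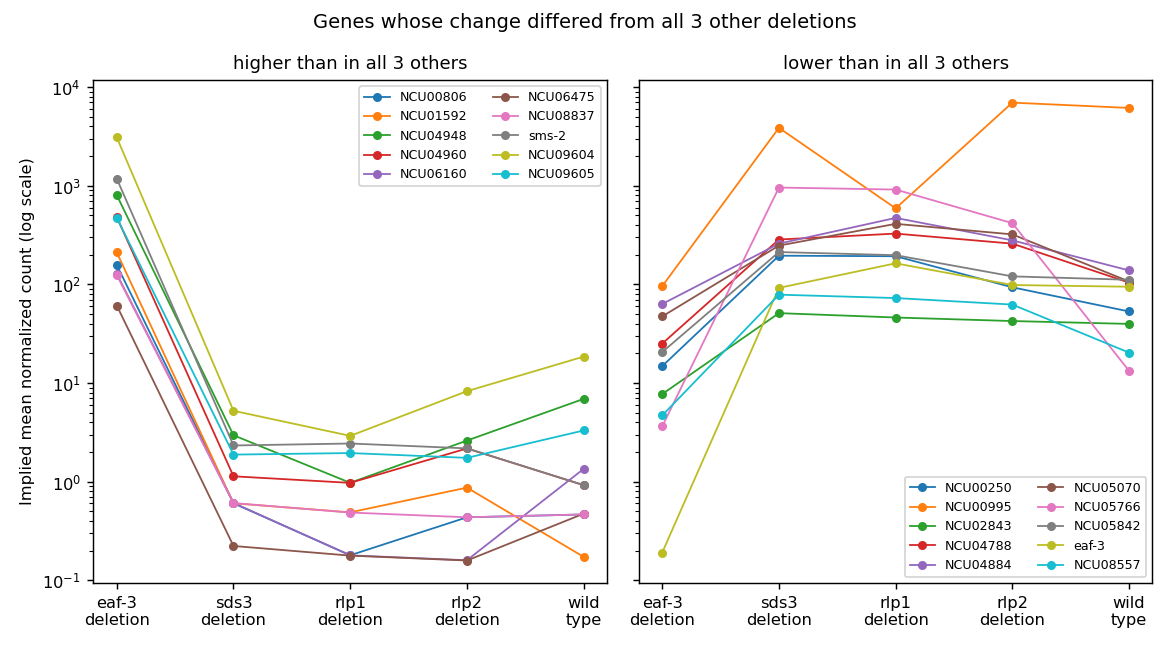
Implied mean normalized counts (log axis) in the eaf-3, sds3, rlp1 and rlp2 deletions and in wild type. Among genes that passed the test against all 3 other deletions, the 10 in each direction with the eaf-3 fold change farthest from theirs are drawn. A line joins the groups of 1 gene, and no point is a single library. On the left the eaf-3 deletion stands above all other groups, as for sms-2 at 1179; on the right it stands below them, as for NCU00995 at 96.0.

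For the ribosomal protein genes no such difference passed the test. Of the 10 ribosomal protein genes, 0 had a fold change that differed from that in another deletion by the normal test, and 0 did so at an unadjusted p under 0.05. Their medians were -1.04 in eaf-3, -1.49 in sds3, -0.86 in rlp1 and -0.67 in rlp2. Differences from sds3 lay between 0.29 and 0.68 with standard errors of 0.41 to 0.62, so differences of this size were not detectable. In amino acid synthesis the fold change was higher in eaf-3 than in sds3 for 2 and lower for 3 of 45 genes, and lower than in rlp1 for 1 and than in rlp2 for 1. Over all genes, 11.9% were higher and 9.04% lower than in sds3, and 6.32% were lower than in rlp1 and 3.15% lower than in rlp2. All these comparisons share the wild type libraries, so their medians are not independent of each other.

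Some genes of the light and carotenoid lists had a lower fold change in eaf-3 than in the other deletions, and others a higher one. al-1, for phytoene desaturase, had 515 in the eaf-3 deletion, 15903, 22912 and 2885 in the sds3, rlp1 and rlp2 deletions, and 518 in wild type. Its fold change was below that of rlp2, the nearest, by 2.49 ± 0.60 (adjusted p of the normal test 0.000804). vvd, for a blue-light receptor, had 419 in the eaf-3 deletion, 2639, 10963 and 1362 in the others, and 233 in wild type, and the repressor gene csp-1 had 1802 in the eaf-3 deletion, 12869, 7587 and 4215 in the others, and 1553 in wild type. Both were below all 3 other deletions in the test. csp-1 belongs to the conidiation list, and al-1, vvd and csp-1 were chosen after their values were seen. Of 12 photoreceptor and clock genes, 4 had a lower fold change in eaf-3 than in sds3, 5 than in rlp1 and 2 than in rlp2, where 9.04%, 6.32% and 3.15% of all genes did. In the same list phy-2 had a higher fold change in eaf-3 than in sds3 (by 2.69 ± 0.90) and than in rlp1 (by 2.68 ± 0.89). Of 6 genes in the carotenoid list, 4 had a lower fold change in eaf-3 than in sds3, 4 than in rlp1 and 1 than in rlp2. cao-1, which entered that list by its symbol, had a higher fold change than in sds3 (by 2.34 ± 0.50). The genes that fell and were lower than in all other deletions included acu-3, nst-4, pks-3, nde-3 and vad-3. NCU05766 had 3.63 in the eaf-3 deletion, 959, 915 and 418 in the sds3, rlp1 and rlp2 deletions, and 13.3 in wild type (-1.87 ± 0.71). NCU04788 had 25.1 in the eaf-3 deletion, 285, 327 and 259 in the others, and 104 in wild type (-2.05 ± 0.37). NCU00995 had 96.0 in the eaf-3 deletion, 3865, 590 and 6965 in the others, and 6153 in wild type.

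Trichostatin A treatment has its own untreated control and shares no library with the deletion set. Among 8705 genes tested in both tables, 1718 rose in the eaf-3 deletion (19.7%) and 448 rose with Trichostatin A (5.15%). Of these, 245 rose in both, which is 14.3% of those higher in the eaf-3 deletion and 54.7% of those higher with Trichostatin A. stk-53 (1.55 ± 0.50), stk-44 (1.73 ± 0.56) and pre-2 (2.38 ± 0.55) rose with Trichostatin A. sms-2 (0.27 ± 0.68) and NCU09604 (0.43 ± 0.76) did not pass there. The strain, its genotype and the histidine supplement differed between the sets, so levels were not compared across them.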

How the data were processed

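Per the labels' protocols, DNase-treated RNA went into a stranded mRNA library kit. The submitters' processing notes list DESeq2 1.24.0, RSEM 1.3.1 and STAR 2.7.3a. What each did, and which build, annotation and strand setting were chosen, is not given in the sources used here. The authors deposited tables of comparisons whose columns, per the file headers, hold an average (a normalized signal over libraries, identical in the 4 deletion tables), log2 fold change, p-value, FDR and category score. Adjusting the deposited p-values with Benjamini-Hochberg returned the deposited FDR. The authors' category score marks genes with FDR under 0.05 whose fold change exceeds 2 on the log2 scale in either direction. With 0 columns of single libraries, sizes and depth of libraries are unknown.

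Standard errors were implied from each deposited p-value, as the size of the fold change over the two-sided normal quantile for that p. The wild type mean was implied as 5 times the average divided by 1 plus the 4 fold changes, with 5 groups of equal weight. The lowest averages of genes read in the eaf-3 deletion alone were equally spaced, so that 1 read was worth 0.100464 or 0.107438 of the average in the 2 libraries, size factors of 0.995 and 0.931 if 10 libraries were averaged. Differences between deletions were tested two-sided and adjusted with Benjamini-Hochberg over all genes, and the script was tested on simulated data. Symbols, order and lengths came from a RefSeq gene table (NC12, 9476 genes matched); its build may not be that of the files, so no coordinates are given. Python 3.11.15, pandas 2.3.3, scipy 1.17.1 and matplotlib 3.10.9 were used. Alternatives were another threshold, the authors' category, filters on the average, centring, and other errors.

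The gene lists were chosen with earlier results of these data known and are described by counts and medians, without a test. Genes were named by rule: the deleted genes and both reporter genes, up to 4 called members of each list by size, the 8 largest changes in each direction with an average of at least 20, the 4 smallest adjusted p-values in each direction, the 10 in each direction farthest from all other deletions, and called genes within 20 of eaf-3. Other names, among them list members that did not pass, were chosen after their values were seen. Genes in multigene families or overlapping others may share reads, and their values are uncertain.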

Additional observations from a re-analysis of the deposited data

How the results depend on the processing

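No paired analysis was possible because the deposited tables hold no values per library, and the labels number no replicates in these groups. Leaving out a library could not be run for the same reason. Choices were changed one at a time. Apart from centring, the alternatives kept the deposited fold changes, so the direction of a gene could not change under them. With centring, which shifted every fold change by the median of 0.07, no called gene among those named changed direction. With the authors' category the counts were 988 higher and 29 lower genes, and 97.1% of calls were higher. At an adjusted p under 0.01 there were 523 lower genes, with 1323 higher, so that 71.7% of calls were higher. A minimum average of 10 gave 1689 higher and 1060 lower genes, no filter 1829 and 1025, and centring on the median 1690 and 1325. Differences between deletions depended most on the error assumed. With squared standard errors halved, the higher and lower counts were 1930 and 1646 against sds3, 1435 and 1217 against rlp1, 1287 and 833 against rlp2, and 706 and 159 for genes that differed from all 3. At an adjusted p under 0.01 they were 681 and 446, 431 and 340, and 407 and 126, in the same order, with 261 and 31 for all 3. The share of genes at chromosome ends that rose was 34.2% with 25 and 28.7% with 100 outermost genes. Of 141 named genes, 69 did not pass with the authors' category, 38 did not pass at an adjusted p under 0.01 and 4 did not pass with centring. Of 66 list counts, 40 moved by more than a fixed factor with the authors' category. At an adjusted p under 0.01, 20 of the 66 moved so, and with centring 4. Read depth is unknown, and the large errors of weak genes limit what could be called lower among them.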
